A study of Homo sapiens with 15 samples.

Results

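Synapses pass signals between nerve cells. In the sending cell, vesicles loaded with transmitter carry synapsins, synaptophysin and SV2 proteins on their surface, synaptotagmins sense calcium or help move membranes, and SNARE proteins pull the vesicle onto the plasma membrane so that it fuses. Active zone proteins hold vesicles at the release site, neurexins and neuroligins join the cells across the cleft, and scaffold proteins anchor receptors in the receiving cell. Neurons also store peptides in secretory granules, which contain granins. The genes described here are 45 such genes, chosen by name and looked up by symbol in the deposited table, which lists 17999 genes; all 45 were found. They comprise 9 synaptic vesicle proteins, 5 synaptotagmins, 6 SNARE proteins and complexins, 7 active zone and priming proteins, 5 adhesion proteins, 6 postsynaptic scaffold proteins, 2 endosomal NSG proteins and 5 secretory granule proteins. Each of them reached 1 FPKM in at least 1 library, so all 45 entered the test.

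RNA was sequenced from unedited cells of H1 and HUES9, established human embryonic stem cell lines. Muscle was sampled at day 40 and at day 50, as 1 HUES9 culture each, and embryonic stem cells (ESCs) as 1 HUES9 culture. Self-renewing neuromesodermal progenitors (srNMPs), cells that can form spinal cord and skeletal muscle, were sampled at passage 8 and passage 25. Neural inductions of 7 days carried the names RASS and RABC, which the labels leave unexplained, and they are called progenitors here. Ventral and dorsal neurons, named as spinal neurons in the labels, complete the set. Each passage, induction and neuron type had 1 H1 and 1 HUES9 library, so srNMPs, progenitors and neurons had 4 libraries each. Nothing says that these came from separate cultures beyond the line. Each passage, induction and neuron type was fitted as a group of its own. The p-values measure the spread between libraries within groups that the line term leaves, pooled over the groups. Differences between the passages, inductions or neuron types of a stage do not enter that spread. Levels are FPKM, a count of fragments divided by transcript length and library size, which allow genes to be compared per length. Changes are differences in log2(FPKM + 1) ± standard error, fitted by limma with a term for the cell line, and calls are made where the p adjusted over 14129 genes is under 0.05. Since 1 FPKM was added, these differences understate the change of weakly expressed genes.

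Summed FPKM lay between 290306 and 421109 per library, and the relative depth read from the smallest values was 0.956 to 1.045 of the mean. Of 12 skeletal muscle markers, 12 reached 1 FPKM in both muscle libraries (summed FPKM 3818 to 5731 in muscle, against 3.51 to 6.25 in neurons and 3.41 to 14.8 in srNMPs). All 12 neuron markers reached 1 FPKM in every neuron library (summed FPKM 1809.9 to 3436 in neurons, against 319 to 595 in srNMPs). Against srNMPs, neurons had 9 of 12 neuron markers higher (DCX 5.84 ± 0.66, adjusted p = 0.00059 and STMN2 5.79 ± 0.87, adjusted p = 0.00176 the most) and 5 of 6 NMP markers lower (FGF8 -6.49 ± 0.30, adjusted p = 5.34e-05 and SP5 -4.98 ± 0.36, adjusted p = 0.00016 the most). Markers of other cells that passed included DPPA4 of pluripotent cells (-2.24 ± 0.15, adjusted p = 0.000139), TOP2A of dividing progenitors (-1.43 ± 0.32, adjusted p = 0.00904), GFAP and GJA1 of astrocytes (2.20 ± 0.62, adjusted p = 0.0214 and -2.62 ± 0.49, adjusted p = 0.004) and INSM1 of endocrine cells (2.37 ± 0.57, adjusted p = 0.0117). In these lists, 1 of 6 pluripotent and 1 of 8 neural progenitor markers fell and 0 rose, with median differences of -0.05 and 0.07. Of 5 astrocyte markers tested 2 rose and 1 fell, and of 7 noradrenergic and endocrine markers 3 rose and 0 fell. 2 libraries of 1 group, the RASS progenitors, did not match the cell line of their labels and look exchanged. They are called labelled H1 and labelled HUES9, and the reported fits keep the labels as given. The order of appearance and the counts of members in progenitors against srNMPs and in neurons against progenitors are also given without them. Neurons against srNMPs was not refitted without both. Where a list of 4 values is given, srNMPs stand in the order passage 8 H1, passage 8 HUES9, passage 25 H1 and passage 25 HUES9, progenitors in the order RASS labelled H1, RASS labelled HUES9, RABC H1 and RABC HUES9, and neurons in the order ventral H1, ventral HUES9, dorsal H1 and dorsal HUES9. Muscle values are those of day 40 and day 50.

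The synaptic genes were weak in srNMPs, were somewhat higher after 7 days of induction and were far higher in neurons. Together they made up 0.0337% to 0.0635% of summed FPKM in srNMPs, 0.0773% to 0.137% in progenitors and 0.439% to 0.735% in neurons. The muscle libraries were at 0.0303% and 0.0339%, below the srNMP range and at its lower end. In bulk cultures, fewer expressing cells and less RNA per cell cannot be told apart. The number of members at 1 FPKM or more was 20 to 33 in srNMPs, 32 to 37 in progenitors, 42 to 45 in neurons, and 13 and 16 in muscle, while over all genes it was 10785 to 12102 in the 15 libraries.

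**Figure D1:**
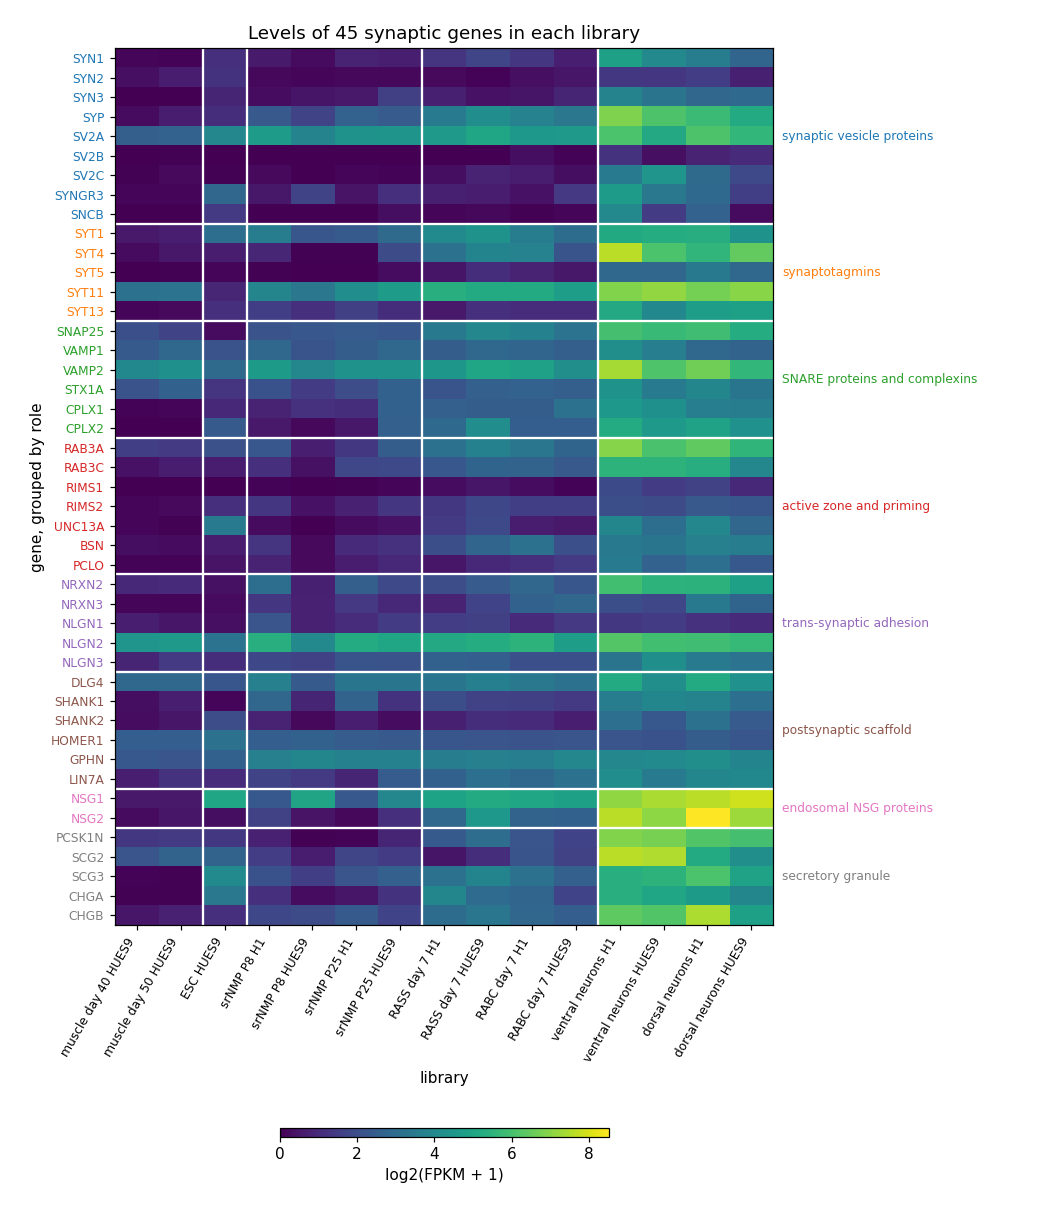
Levels of the 45 genes (rows, grouped and coloured by role) in the 15 libraries (columns) as log2(FPKM + 1). The 4 neuron libraries at the right are the brightest block, with NSG2 at 363 FPKM in H1 dorsal neurons the highest value, and the muscle libraries at the left are dark apart from genes such as NLGN2 and VAMP2.

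Neuronal genes in non-neuronal cells can be held down by REST, a repressor that binds the RE1 element, and many carry a cyclic AMP response element or GC boxes near their start. Of the 45 genes, 33 had a promoter window from 250 bases before to 50 bases after a start site in RefSeq (GRCh38.p14), in 49 windows. Both strands were searched. The RE1 core, spelled TTCAGCACC, any 2 bases and GGACAG, was found in 5 of 35116 windows of all genes (0.0142%), 1 of which belongs to SYN1. Its arms TTCAGCACC and GGACAG stood together, at any spacing, in 40 windows (0.114%), and SYN1, UNC13A and SCG3 were the members that held both. The palindrome TGACGTCA of the cyclic AMP response element was found in 1.85% of all windows and in those of SYN1, CHGA and DLG4, and it does not overlap the RE1 arms in these stretches. The stretches printed are those of the 3 members with both RE1 arms and that of CHGA, which holds the palindrome and was called higher at day 7; that of DLG4 is not printed. Capitals mark the RE1 arms or the TGACGTCA palindrome, and the strand is that of the gene.
SYN1 (chrX:47619994-47620105, minus strand, positions -248 to -137 from the start): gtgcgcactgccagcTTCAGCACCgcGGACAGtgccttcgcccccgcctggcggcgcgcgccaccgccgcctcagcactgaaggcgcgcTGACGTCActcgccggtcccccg
UNC13A (chr19:17688340-17688362, minus strand, across the start, both arms on the opposite strand): CTGTCCgcgcccccGGTGCTGAA
SCG3 (chr15:51681511-51681533, plus strand, just after the start): TTCAGCACCcacagggcGGACAG
CHGA (chr14:92923081-92923118, plus strand, positions -69 to -32 from the start): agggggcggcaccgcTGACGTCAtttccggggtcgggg
In SYN1 the arms are spaced as in the core, whereas in UNC13A and SCG3 8 bases part them. The GC box GGGCGG was in 30 of 49 member windows (61.2%), against 45% of all windows. A match is a description of the letters and not evidence of binding. REST itself had 8.98, 7.96, 6.81 and 7.16 FPKM in srNMPs, 9.66, 6.76, 5.47 and 6.29 FPKM in progenitors and 3.92, 4.55, 4.62 and 5.48 FPKM in neurons. Every neuron library was below every srNMP library for REST, and the fit gave a difference of -0.63 ± 0.15 (adjusted p = 0.0106). SRRM4, a splicing factor known to act on REST transcripts, had 0.863, 0.0782, 0.237 and 3.12 FPKM in srNMPs, 10.4, 13.3, 10.02 and 3.36 FPKM in progenitors and 13.7, 14.2, 25.9 and 17.5 FPKM in neurons, and it was called higher in progenitors than in srNMPs (2.39 ± 0.46, adjusted p = 0.0446). RCOR2, a REST corepressor, was also called lower in neurons than in srNMPs (-0.70 ± 0.17, adjusted p = 0.0126). Of the 5 genes listed around REST, 1 rose and 2 fell in that comparison, and RCOR1 and SIN3A were not called. REST did not pass in progenitors against srNMPs (-0.14 ± 0.15, adjusted p = 0.607). The part of these genes in the synaptic gene levels was not tested.

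The first question was in which order the genes appear. A gene was taken as present in a stage (srNMPs, progenitors or neurons) where every library of it reached 1 FPKM; ESCs and muscle did not enter the rule. By this rule 17 of the 45 were already present in srNMPs, 14 were first present in progenitors, 10 were first present in neurons, and 4 (SYN2, SV2B, SNCB and RIMS1) were present in none of these stages. Of those 14 later or absent genes, 7 (SYN1, SYN2, SYNGR3, SNCB, UNC13A, SHANK2 and SCG2) were at 1 FPKM or more in the ESC library and 1, SCG2, in both muscle libraries. Of all genes first present in neurons 41.6% reached 1 FPKM in both muscle libraries, and of those in none 15.4%. Over all listed genes the shares by first stage were 56.6% in srNMPs, 3.39% first in progenitors, 3.96% first in neurons and 36.1% in none. The genes present in srNMPs included 4 of 6 SNARE proteins and complexins, 3 of 5 synaptotagmins and 3 of 6 scaffold genes, but 2 of 9 vesicle proteins and 0 of 7 active zone genes. Of the active zone genes 4 of 7 were first present in progenitors, and of the vesicle proteins 4 of 9 were first present in neurons and 3 of 9 in no stage. The place of the active zone genes rests on 1 library: without HUES9 passage 8 srNMPs, where RAB3A, RAB3C and BSN had 0.645, 0.313 and 0.162 FPKM, these 3 were present in srNMPs and 1 of 7 was first present in progenitors, while the vesicle protein counts were the same. Differences between roles were not tested. The order depends on the level asked for: at 5 FPKM, 5 genes were present in srNMPs, 9 first in progenitors, 19 first in neurons and 12 in none, and with a mean of 1 FPKM in place of every library the counts were 29, 8, 7 and 1. Without the HUES9 passage 8 library, the lowest srNMP library for 32 of the 45 genes (38.8% of all genes), 24 were present in srNMPs and 8 first in progenitors, and without HUES9 dorsal neurons 1 was present in no stage. Without both RASS libraries the counts were 17, 17, 7 and 4.

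The 7-day induction raised 6 of the 45 genes above srNMPs and lowered 0, in a comparison where 3.43% of all genes were called (1.73% higher and 1.69% lower). The 6 were SYP, SYT11, SNAP25, BSN, PCSK1N and CHGA, 1 or 2 from each of 5 roles. A further 15 had an unadjusted p under 0.05 without passing the adjustment. The median difference over the 45 was 0.44, against 0.02 over all genes tested, and 38 of 45 differences were positive, against 53.6% of all genes. All 4 progenitor libraries lay above all 4 srNMP libraries for 16 members, where 8.95% of all genes did so, and below them for 1 (HOMER1), where 8.11% did. Without both RASS libraries these were 20 members (13.6% of all genes) and 2 (13.7%). The calls depend on single libraries. The number of all genes called also moved between these fits, so the member counts are not read as results about the members. Without HUES9 passage 8 srNMPs or H1 RABC progenitors 0 members were called, as without both RASS libraries; without H1 passage 25 srNMPs or the labelled HUES9 RASS library 1 was called; and without H1 passage 8 srNMPs 12 were called. With the RASS line labels exchanged 11 were called, with 0.1 FPKM in place of 1 added 10, with no filter on low genes 1, and with only the libraries of the contrast 0. Each of the 6 had a positive difference under all 16 alternatives. Rescaling every library to equal totals moved the median of all genes to 0.15 and the higher share of all calls to 61.8% (50.6% as reported), with 5 members called.

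The step from progenitors to neurons was larger. Of the 45 genes, 39 rose and 0 fell, in a comparison where 37.8% of all genes were called (21.3% higher), with a median difference of 1.88 over the 45 against 0.04 over all genes. The neuron libraries lay above all progenitor libraries for 40 members, where 21.2% of all genes did so, and without both RASS libraries for 40 (29.3%), with 33 called. Over both steps, 42 rose and 0 fell (52.1% of all genes called, 28.8% higher), with a median of 2.46 over the 45 against 0.05 over all genes. NLGN1, HOMER1 and GPHN were the 3 that did not pass. SV2B, SV2C and RIMS1 reached 1 FPKM in neuron libraries alone and so entered the test through the group where they were high; of the 42 other members, 36 rose in the second step and 39 over both. All neuron libraries lay above all srNMP libraries for 39 members (25.4% of all genes), and below them for 0 (19.8%). The 3 stage comparisons share libraries, so their values are set side by side and are not independent. Of the 42, the share of the whole difference that was reached at day 7 had a median of 25.3%, against 27.2% over the 4076 genes called higher. It was highest in NRXN3 (64.2%), BSN (61.5%), LIN7A (57.8%), CPLX2 (54.6%), CHGA (52.1%) and RIMS2 (51.9%), and lowest in SHANK1 (-13.2%), SYT13 (-11.6%), SYNGR3 (-8.28%), SYN3 (-4.12%) and SCG2 (-0.13%). Without both RASS libraries the median was 21.0%, with NRXN3 at 116.7%, BSN at 65.9%, LIN7A at 60.8%, RIMS2 at 51.2%, CPLX2 at 41.7% and CHGA at 36.9%. These shares are descriptions with no error of their own. With equal totals the median of all genes moved to 0.14 in the second step and 0.28 over both, and the higher share of all calls to 66.2% (56.4% as reported) and 72% (55.4%); quantile normalization gave 46.3% and 44.8%. Members called were 41 and 43 with equal totals, where GPHN passed over both steps (0.54, adjusted p = 0.0135), and 40 and 43 with quantile normalization, where HOMER1 passed as lower over both steps (-0.50, adjusted p = 0.0147). Without HUES9 passage 8 srNMPs, NLGN1 passed as lower over both steps (-0.50, adjusted p = 0.0296).

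**Figure D2:**
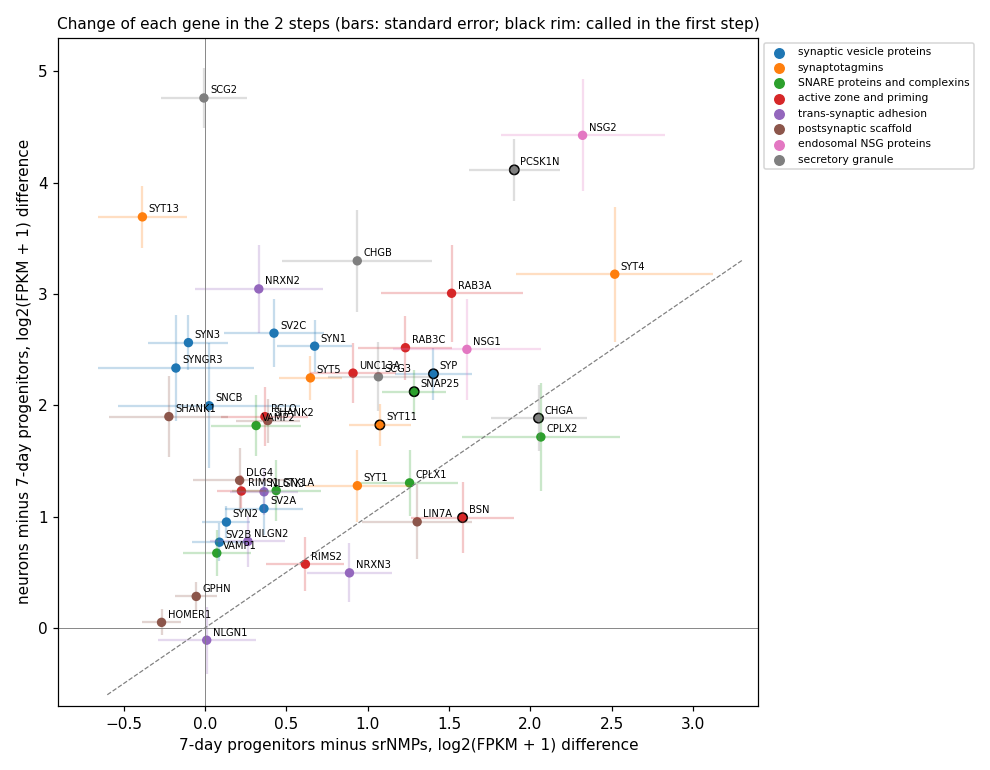
Difference between progenitors and srNMPs (x axis) and between neurons and progenitors (y axis) of each gene, in log2(FPKM + 1) with standard errors; colours are roles and black rims mark the 6 genes called in the first step. Most genes lie above the dashed line of equal steps, while BSN, LIN7A, NRXN3, CPLX2, CHGA, RIMS2 and NLGN1 lie below it and SCG2 and SYT13 sit at or left of 0 on the x axis.

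Among the synaptic vesicle proteins, SYP and SV2A were expressed throughout, while the synapsins and SV2C were at 2.41 FPKM or less in every srNMP and progenitor library. SYP encodes synaptophysin, an integral vesicle protein, and it was the only one of the 9 called in the first step. All 9 were called higher in neurons against srNMPs, but SV2B and SV2C entered the test through the neuron libraries alone. SYP had 4.22, 2.34, 5.36 and 4.48 FPKM in srNMPs, 10.5, 17.1, 12.8 and 9.39 FPKM in progenitors and 116, 69, 54.8 and 35.4 FPKM in neurons. The 3 stages do not overlap, with differences of 1.40 ± 0.24 (adjusted p = 0.0325) in the first step and 2.28 ± 0.24 (adjusted p = 0.000947) in the second. SYN1 encodes a synapsin, which ties vesicles to each other in the reserve pool, and it had 0.519, 0.188, 0.768 and 0.657 FPKM in srNMPs, 1.41, 2.41, 1.53 and 0.647 FPKM in progenitors and 27.4, 15.1, 11.1 and 5.9 FPKM in neurons. All 4 neuron libraries lay above the 8 earlier ones, and the whole difference was 3.20 ± 0.23 (adjusted p = 0.000158). SV2C, a vesicle transporter-like glycoprotein, had 0.164, 0.0164, 0.0737 and 0.0605 FPKM in srNMPs, 0.24, 0.82, 0.555 and 0.245 FPKM in progenitors and 10.2, 20.6, 6.69 and 2.64 FPKM in neurons. It was under 1 FPKM in every library outside the neurons, so that its difference of 3.07 ± 0.31 over both steps is given as a description. SV2A, its widely expressed relative, had 24.5, 13.1, 19.9 and 19.99 FPKM in srNMPs, 23.5, 30.9, 22 and 23 FPKM in progenitors and 67.7, 33.9, 69.4 and 49.1 FPKM in neurons. Its progenitor values overlapped those of srNMPs (0.36 ± 0.24, adjusted p = 0.393), and only the neuron libraries stood above both. Mean levels in neurons were 8.52 ± 3.23 FPKM for SYN3, 10.6 ± 9.64 FPKM for SYNGR3 and 1.42 ± 0.513 FPKM for SYN2 (SD, n = 4). SNCB, beta-synuclein, had 15.1 FPKM in H1 ventral neurons and 0.192 FPKM in HUES9 dorsal neurons. SV2B was the weakest of the 45, at 0.284 to 1.40 FPKM in neurons. Other vesicle membrane genes moved less uniformly: of 16 further synaptotagmin and vesicle membrane genes tested, 11 rose and 2 fell in neurons against srNMPs. SYT3 (3.22 ± 0.15, adjusted p = 5.34e-05) and SCAMP5 (2.96 ± 0.23, adjusted p = 0.000194) had the largest rises, and SYNPR (-1.73 ± 0.43, adjusted p = 0.013) and SYPL1 (-1.59 ± 0.26, adjusted p = 0.00224), both relatives of synaptophysin, were those that fell.

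All 5 synaptotagmins rose in neurons. SYT11, which does not bind calcium and restrains membrane traffic, was the 1 called at day 7, a call lost under 8 of 16 alternatives; differences between the genes were not tested. SYT11 had 13.7, 9.46, 17.1 and 25.2 FPKM in srNMPs, 39.5, 35.6, 35.6 and 25.5 FPKM in progenitors and 117, 138, 106 and 127 FPKM in neurons. Every progenitor library was above every srNMP library, by a narrow margin of 25.5 against 25.2 FPKM at the closest, and it was called in both steps (1.08 ± 0.19, adjusted p = 0.0371, then 1.82 ± 0.19, adjusted p = 0.001). SYT4, a synaptotagmin found on dense core granules, had 0.889, 0.0419, 0.0442 and 2.87 FPKM in srNMPs, 8.34, 13.4, 12.7 and 3.65 FPKM in progenitors and 196, 67.4, 47 and 87.5 FPKM in neurons. It was nearly absent from 2 srNMP libraries; its first step of 2.52 ± 0.61 (adjusted p = 0.0692) did not pass, and the second did (3.18 ± 0.61, adjusted p = 0.00677). SYT13 had 1.99, 1.19, 2.07 and 1.15 FPKM in srNMPs, 0.501, 1.22, 1.1 and 1.13 FPKM in progenitors and 34.3, 14.5, 25.4 and 27.7 FPKM in neurons. Its progenitor and srNMP libraries overlapped (-0.38 ± 0.28, adjusted p = 0.426), and neurons stood 3.69 ± 0.28 (adjusted p = 0.000371) above progenitors. SYT1, the calcium sensor of fast release, had 11.2, 3.8, 4.31 and 6.75 FPKM in srNMPs, 15.8, 19.4, 10.8 and 6.98 FPKM in progenitors and 35.3, 37.3, 38 and 19.7 FPKM in neurons. It was well above 1 FPKM in every srNMP library and differed by 2.21 ± 0.32 (adjusted p = 0.00155) between neurons and srNMPs. SYT5 was at or under 1.14 FPKM before the neuron stage and at 5.94 to 9.94 FPKM in neurons.

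The SNARE genes were expressed at every stage, and 4 of the 6 in this role were present from srNMPs on. All 6 rose in neurons against srNMPs, and 1 of 6, SNAP25, was called in the first step. SNAP25, the plasma membrane SNARE of neurons, had 3.53, 3.94, 4.44 and 4.002 FPKM in srNMPs, 9.97, 14.3, 12.5 and 8.49 FPKM in progenitors and 62.3, 52.2, 59.1 and 37.2 FPKM in neurons. The 4 srNMP values lie within 1 FPKM of each other and no stage overlaps the next; the steps were 1.29 ± 0.20 (adjusted p = 0.0276) and 2.12 ± 0.20 (adjusted p = 0.000684). The complexins clamp and assist the assembled SNARE complex. CPLX2 had 0.501, 0.141, 0.453 and 5.03 FPKM in srNMPs, 6.45, 16.9, 4.88 and 4.86 FPKM in progenitors and 37, 22.8, 29.1 and 18.6 FPKM in neurons. CPLX1 had 0.773, 1.31, 1.15 and 5.18 FPKM in srNMPs, 5.03, 4.73, 4.68 and 8.08 FPKM in progenitors and 22, 18.2, 11.4 and 11 FPKM in neurons. In both complexins the HUES9 passage 25 srNMP library was at about the progenitor level and the other 3 were at 1.31 FPKM or less, and neither first step passed (adjusted p = 0.0663 for CPLX2 and 0.0666 for CPLX1). Over both steps they differed by 3.78 ± 0.48 and 2.56 ± 0.30 (adjusted p = 0.000965 and 0.000647). VAMP2, the vesicle SNARE, had 24, 14.4, 19.9 and 19 FPKM in srNMPs, 21.5, 31.2, 28 and 17.3 FPKM in progenitors and 163, 71.4, 99.6 and 48.7 FPKM in neurons. It was abundant from the start, its srNMP and progenitor values overlapped, and it differed by 1.82 ± 0.28 (adjusted p = 0.00295) in the second step. STX1A, syntaxin, rose by 1.67 ± 0.27 over both steps (adjusted p = 0.00242). VAMP1 had the smallest difference of the 6, at 0.75 ± 0.21 (adjusted p = 0.0215), and its neuron libraries overlapped the srNMP ones. Of 29 further SNARE, priming and release genes tested, 25 rose and 0 fell in neurons. The largest rises were in CADPS (3.75 ± 0.37, adjusted p = 0.00039), which primes dense core granules, and APBA1 (3.35 ± 0.21, adjusted p = 0.000123), an adaptor protein of presynaptic terminals. CADPS, DOC2A and RIMS4 were called higher in progenitors as well.

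**Figure D3:**
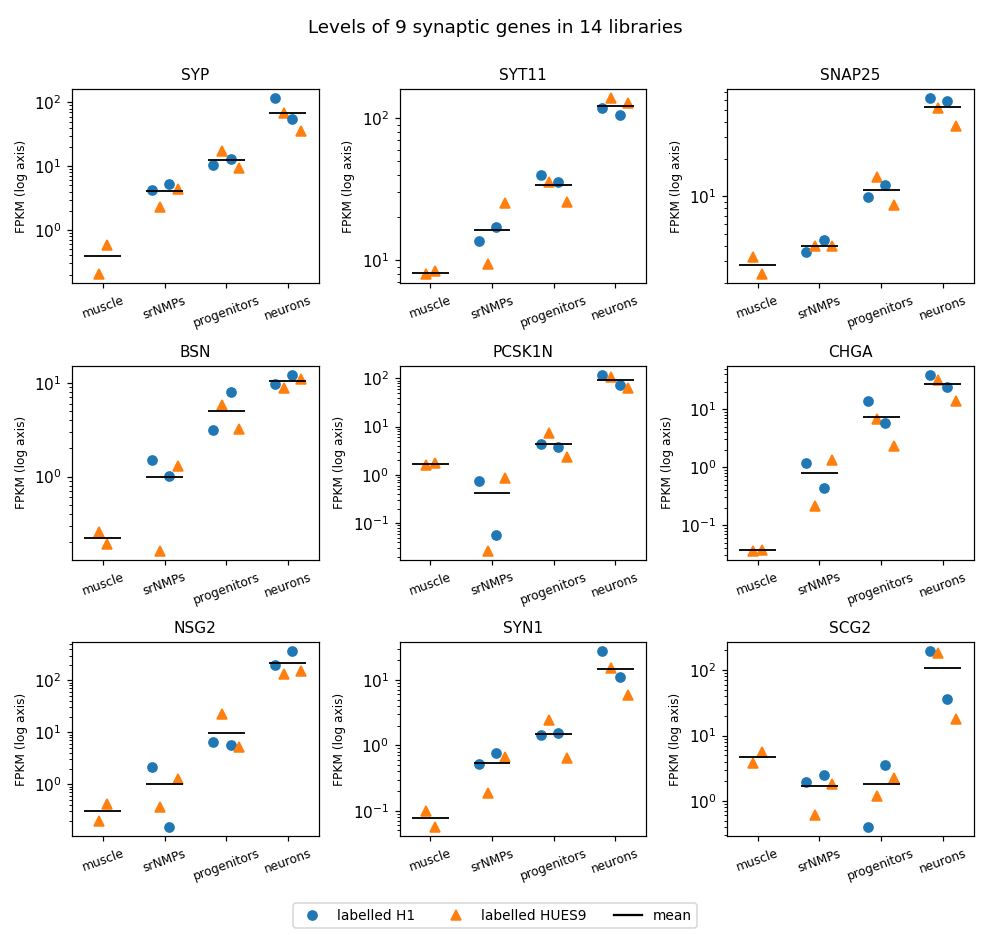
FPKM on log axes for 9 genes in muscle (2 libraries), srNMPs, progenitors and neurons (4 libraries each); circles are labelled H1, triangles labelled HUES9 and lines are means. The means of the 6 genes in the upper rows and of NSG2 and SYN1 are higher at each stage from srNMPs to neurons, and SCG2 is split between ventral neurons (181 and 195 FPKM, left pair) and dorsal neurons (17.6 and 35.6 FPKM).

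The active zone and priming genes were all called higher in neurons than in srNMPs, but RIMS1 entered the test through the neuron libraries alone. BSN was the only one called at day 7, and RAB3A reached the highest level. BSN encodes bassoon, a giant scaffold of the release site, and it had 1.5, 0.162, 1.01 and 1.3 FPKM in srNMPs, 3.13, 5.82, 8.04 and 3.25 FPKM in progenitors and 9.77, 8.83, 12.2 and 11.1 FPKM in neurons. The first step was 1.58 ± 0.32 (adjusted p = 0.0475) and the second 0.99 ± 0.32 (adjusted p = 0.0458). The call of the first step was lost under 11 of 16 alternatives and that of the second under 10 of 16. RAB3A, a small GTPase on vesicles, had 3.93, 0.645, 1.61 and 4.68 FPKM in srNMPs, 7.95, 12.4, 9.04 and 5.65 FPKM in progenitors and 123, 65.3, 84.8 and 46.2 FPKM in neurons. All 4 progenitor values were above all srNMP values, yet the first step of 1.52 ± 0.44 missed the threshold (adjusted p = 0.103); the second was 3.01 ± 0.44 (adjusted p = 0.0025). RAB3C, its relative, had 1.24, 0.313, 2.54 and 2.64 FPKM in srNMPs, 3.99, 5.74, 5.58 and 4.22 FPKM in progenitors and 43.9, 44.4, 38.3 and 14.5 FPKM in neurons. Its stages do not overlap either, and the whole difference was 3.75 ± 0.29 (adjusted p = 0.000192). UNC13A, the priming factor whose RE1 arms are printed above, had 0.195, 0.00825, 0.200 and 0.335 FPKM in srNMPs, 1.73, 2.71, 0.605 and 0.483 FPKM in progenitors and 14.1, 7.48, 14.4 and 5.98 FPKM in neurons. Its 2 RASS libraries stood above its 2 RABC libraries, all 4 stood above srNMPs, and it differed by 3.20 ± 0.27 (adjusted p = 0.00024) over both steps. PCLO, piccolo, rose by 2.27 ± 0.27 and RIMS2, which tethers vesicles to calcium channels, by 1.19 ± 0.24 (adjusted p = 0.000695 and 0.00562). RIMS1, a relative of RIMS2 that was under 1 FPKM in every library outside the neurons, differed by 1.45 ± 0.15. RIMS2 did not pass in the second step alone (0.57 ± 0.24, adjusted p = 0.1). Genes that retrieve vesicle membrane after release went the same way: 9 of 10 endocytosis genes rose in neurons and 0 fell. DNAJC6, auxilin, which strips clathrin from vesicles, and SNAP91, a clathrin adaptor, had the largest rises (3.38 ± 0.21, adjusted p = 0.000122 and 3.21 ± 0.32, adjusted p = 0.000394).

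The adhesion genes were mixed. 4 of 5 rose in neurons against srNMPs, NRXN2 the furthest, and 0 were called in the first step. NLGN1 did not pass in any stage comparison. NRXN2, a presynaptic neurexin, had 7.35, 0.661, 4.98 and 2.64 FPKM in srNMPs, 2.99, 4.48, 6.09 and 3.88 FPKM in progenitors and 59.8, 44.2, 43.5 and 27.7 FPKM in neurons. Its srNMP and progenitor values overlapped, and the second step was 3.04 ± 0.39 (adjusted p = 0.00177). NRXN3, another neurexin, had 1.56, 0.735, 1.67 and 0.908 FPKM in srNMPs, 0.808, 2.3, 5.28 and 6.09 FPKM in progenitors and 3.13, 2.53, 9.84 and 5.62 FPKM in neurons. RABC progenitors were near the dorsal neuron level and RASS progenitors at 2.30 FPKM or less, and neither single step passed (adjusted p = 0.108 and 0.18) while the whole difference did (1.38 ± 0.26, adjusted p = 0.00453). NLGN3, a postsynaptic neuroligin, had 2.56, 2.23, 3.6 and 3.52 FPKM in srNMPs, 5.19, 4.88, 3.24 and 3.25 FPKM in progenitors and 8.76, 18, 10.1 and 8.47 FPKM in neurons. It passed in the second step (1.22 ± 0.21, adjusted p = 0.00475). NLGN2, the neuroligin of inhibitory synapses, had 39.8, 15.2, 36.4 and 31.1 FPKM in srNMPs, 34.5, 37.9, 44.1 and 25.4 FPKM in progenitors and 73.9, 59.9, 59.3 and 50.6 FPKM in neurons. It was the most abundant of the 45 in 3 of the 4 srNMP libraries and rose by 1.04 ± 0.23 (adjusted p = 0.00834). NLGN1 had 1.83 FPKM or less in neurons and 0.708 to 3.69 FPKM in srNMPs (-0.10 ± 0.30, adjusted p = 0.807). Among the scaffold genes, 4 of 6 rose in neurons against srNMPs and 0 were called in the first step. LIN7A, a small PDZ scaffold, had 2.36, 1.73, 0.847 and 4.51 FPKM in srNMPs, 5.19, 7.65, 6.19 and 8.03 FPKM in progenitors and 17.1, 10.6, 13.9 and 14.5 FPKM in neurons. All progenitor values were above the srNMP values, with a first step of 1.30 ± 0.34 (adjusted p = 0.0812) and a whole difference of 2.26 ± 0.34 (adjusted p = 0.0017). SHANK2 had 0.817, 0.132, 0.635 and 0.229 FPKM in srNMPs, 0.682, 1.17, 1.03 and 0.631 FPKM in progenitors and 7.61, 4.05, 7.92 and 4.42 FPKM in neurons. SHANK1 had 5.98, 0.852, 5.55 and 1.39 FPKM in srNMPs, 3.08, 2.21, 2.06 and 1.74 FPKM in progenitors and 10.9, 13.9, 12.9 and 7.62 FPKM in neurons. Both SHANK genes, which encode the deep layer of the excitatory postsynaptic density, stood apart in neurons; SHANK1 in the H1 srNMP libraries was above every progenitor library. DLG4 (PSD-95) had 11.9, 4.32, 8.9 and 8.93 FPKM in srNMPs, 8.91, 11.9, 9.59 and 8.03 FPKM in progenitors and 35.5, 17.3, 35.8 and 18.6 FPKM in neurons. Its whole difference was 1.54 ± 0.29 (adjusted p = 0.0041). HOMER1, a scaffold of metabotropic glutamate receptors, and GPHN, the scaffold of glycine and GABA receptors, did not pass: HOMER1 averaged 3.91 ± 0.52 FPKM in neurons and 4.7 ± 0.429 FPKM in srNMPs, and GPHN 15.1 ± 1.73 FPKM in neurons and 12.7 ± 0.763 FPKM in srNMPs (SD, n = 4 each; adjusted p = 0.162 and 0.177). In the 23 further adhesion and scaffold genes, 16 rose and 2 fell. LRRTM2 (4.01 ± 0.47, adjusted p = 0.000701), a postsynaptic adhesion protein, was among those that rose, and DLG1 (-1.26 ± 0.14, adjusted p = 0.000523) and HOMER3 (-0.72 ± 0.20, adjusted p = 0.0212), relatives of DLG4 and HOMER1, fell.

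NSG2 and NSG1, small endosomal proteins that take part in receptor recycling, had the highest mean FPKM of the 45 genes in neurons (212 ± 105 and 185 ± 41.5 FPKM, SD, n = 4). NSG2 had 2.18, 0.362, 0.148 and 1.28 FPKM in srNMPs, 6.4, 22, 5.57 and 5.3 FPKM in progenitors and 198, 134, 363 and 153 FPKM in neurons. It rose by 6.74 ± 0.50 (adjusted p = 0.000179), the largest difference among the 45, and its first step of 2.32 ± 0.50 missed the threshold (adjusted p = 0.0545). NSG1 had 4.08, 30.3, 4.04 and 14.4 FPKM in srNMPs, 29.4, 36, 32 and 27.9 FPKM in progenitors and 136, 172, 195 and 235 FPKM in neurons. The HUES9 srNMP libraries were higher than the H1 ones at both passages, and the HUES9 passage 8 value of 30.3 FPKM fell within the progenitor range.

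All 5 secretory granule genes rose in neurons against srNMPs, with a median difference of 4.23, second to the NSG pair among the roles. PCSK1N and CHGA were also called at day 7. PCSK1N encodes proSAAS, an inhibitor of a prohormone convertase, and it had 0.732, 0.0268, 0.0566 and 0.846 FPKM in srNMPs, 4.29, 7.2, 3.72 and 2.3 FPKM in progenitors and 118, 106, 72.8 and 63 FPKM in neurons. It was under 1 FPKM in all srNMP libraries and at 2.30 FPKM or more in all progenitor libraries; the steps were 1.90 ± 0.28 (adjusted p = 0.0258) and 4.11 ± 0.28 (adjusted p = 0.000266). CHGA, chromogranin A, whose TGACGTCA stretch is printed above, had 1.19, 0.217, 0.434 and 1.35 FPKM in srNMPs, 13.9, 6.88, 5.85 and 2.28 FPKM in progenitors and 39.3, 31.6, 23.9 and 14 FPKM in neurons. The stages did not overlap, with steps of 2.05 ± 0.30 (adjusted p = 0.0243) and 1.88 ± 0.30 (adjusted p = 0.00329). SCG2, secretogranin II, had 1.92, 0.61, 2.47 and 1.82 FPKM in srNMPs, 0.396, 1.19, 3.6 and 2.21 FPKM in progenitors and 195, 181, 35.6 and 17.6 FPKM in neurons. Its first step did not pass (-0.01 ± 0.27, adjusted p = 0.998), and it had the largest second step of the 45 (4.76 ± 0.27, adjusted p = 0.000191). That second step averages 6.75 to ventral and 2.76 to dorsal neurons, a gap that its standard error leaves out. CHGB had 2.63, 2.9, 4.28 and 2.31 FPKM in srNMPs, 7.1, 9.05, 6.04 and 4.8 FPKM in progenitors and 82.7, 71.9, 177 and 27.4 FPKM in neurons, with the H1 dorsal library far above the HUES9 dorsal one, and a whole difference of 4.23 ± 0.46 (adjusted p = 0.000524). SCG3, a granin that sorts cargo into granules, rose by 3.32 ± 0.31 (adjusted p = 0.000333). Of 8 further granule genes tested 6 rose and 0 fell, led by PTPRN (3.93 ± 0.35, adjusted p = 3e-04), a granule membrane protein, and VGF (2.96 ± 0.52, adjusted p = 0.00311), a peptide precursor. PCSK2, a convertase, was called at day 7 (2.90 ± 0.30, adjusted p = 0.00996). Markers of noradrenergic and endocrine cells, which also contain such granules, summed to 2.19 to 19.9 FPKM in srNMPs, 7.52 to 69.7 FPKM in progenitors and 37.1 to 122 FPKM in neurons, with 3 of 7 called higher in neurons than in srNMPs. TH had 2.4, 0.0286, 0.136 and 0.0451 FPKM in srNMPs, 0.0148, 0.0155, 0.265 and 0 FPKM in progenitors and 10.3, 0.406, 14.2 and 2.81 FPKM in neurons. Their part in the granule gene levels was not tested.

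Over all 5 lists of further synaptic genes, 67 of 86 rose and 4 fell in neurons against srNMPs, with a median difference of 1.35, and 6 rose and 2 fell in progenitors against srNMPs, with a median of 0.29. Of 13 SNARE and vesicle relatives that serve secretion in other cells 0 rose and 6 fell in neurons against srNMPs, where 28.8% of all genes rose and 23.2% fell; their difference from the 45 was not tested. VAMP8 (-3.83 ± 0.63, adjusted p = 0.00238) and VAMP5 (-2.86 ± 0.59, adjusted p = 0.00602) fell most. VAMP8 had 5.38, 66.6, 16.8 and 15.7 FPKM in srNMPs, 0.164, 0.207, 1.05 and 7.87 FPKM in progenitors and 0.61, 0.383, 0 and 0.399 FPKM in neurons.

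The libraries of a stage differed from one another in a way that touches these results. Among srNMPs, HUES9 passage 25 was the highest library for 19 of the 45 genes (26% of all genes), and HUES9 passage 8 the lowest for 32. Some marker values, chosen after they were seen, set single srNMP libraries apart. In HUES9 passage 25, PAX6, a neural progenitor factor, had 24.5 FPKM and 0.161 to 0.324 FPKM in the other 3, and STMN2, a neuron gene, had 72.0 FPKM against 2.47 to 13.3 FPKM. HUES9 passage 8 had SOX10, a crest factor, at 9.89 FPKM, against 0 to 0.241 FPKM in the others. Among progenitors, the labelled HUES9 RASS library was highest for 26 of 45 (29% of all genes). In neurons, H1 was above HUES9 for 35 of 45 genes in ventral cultures (55.1% of all genes) and for 38 of 45 in dorsal cultures (49.6%), and in both for 30 of 45 (32.1%). The summed neuron markers were 1809.9 to 3436 FPKM in these 4 libraries. The part of these library differences in the results was not tested.

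Ventral neurons, set against dorsal neurons, had 1 member called, SCG2, in a comparison where 2.04% of all genes were called (1.47% higher). SCG2 had 195 and 181 FPKM in ventral neurons, against 35.6 and 17.6 FPKM in dorsal neurons. Both ventral libraries were above both dorsal ones, and the difference was 2.85 ± 0.38 (adjusted p = 0.0156), at 2.42 in H1 and 3.29 in HUES9. Over the 45 the median difference was 0.30, against 0.04 over all genes, and 7 had an unadjusted p under 0.05. In both lines 23 genes were higher in ventral neurons and 10 lower, where 36.5% and 28.2% of all genes were. Ventral libraries lay above dorsal ones for 14 members (25.9% of all genes) and below them for 5, RIMS2, BSN, NRXN3, HOMER1 and NSG1 (20.6%). SYN1 had 27.4 and 15.1 FPKM in ventral neurons, against 11.1 and 5.9 FPKM in dorsal neurons, and SYP had 116 and 69 FPKM in ventral neurons, against 54.8 and 35.4 FPKM in dorsal neurons. These differences of 1.23 ± 0.33 and 1.01 ± 0.33 did not pass (adjusted p = 0.13 and 0.195). NRXN3 ran the other way, with 3.13 and 2.53 FPKM in ventral neurons, against 9.84 and 5.62 FPKM in dorsal neurons (-1.15 ± 0.37, adjusted p = 0.188). The SCG2 call was lost with 0.1 FPKM added (adjusted p = 0.0761), with only these 4 libraries (0.242), without HUES9 dorsal neurons (0.101), without H1 ventral neurons (0.0536) and without HUES9 ventral neurons (0.0588); with the RASS lines exchanged SYN1 (adjusted p = 0.0296) and SYP (0.0288) were called beside SCG2, 3 in all. With quantile normalization 56.6% of all calls were higher (71.9% as reported).

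**Figure D4:**
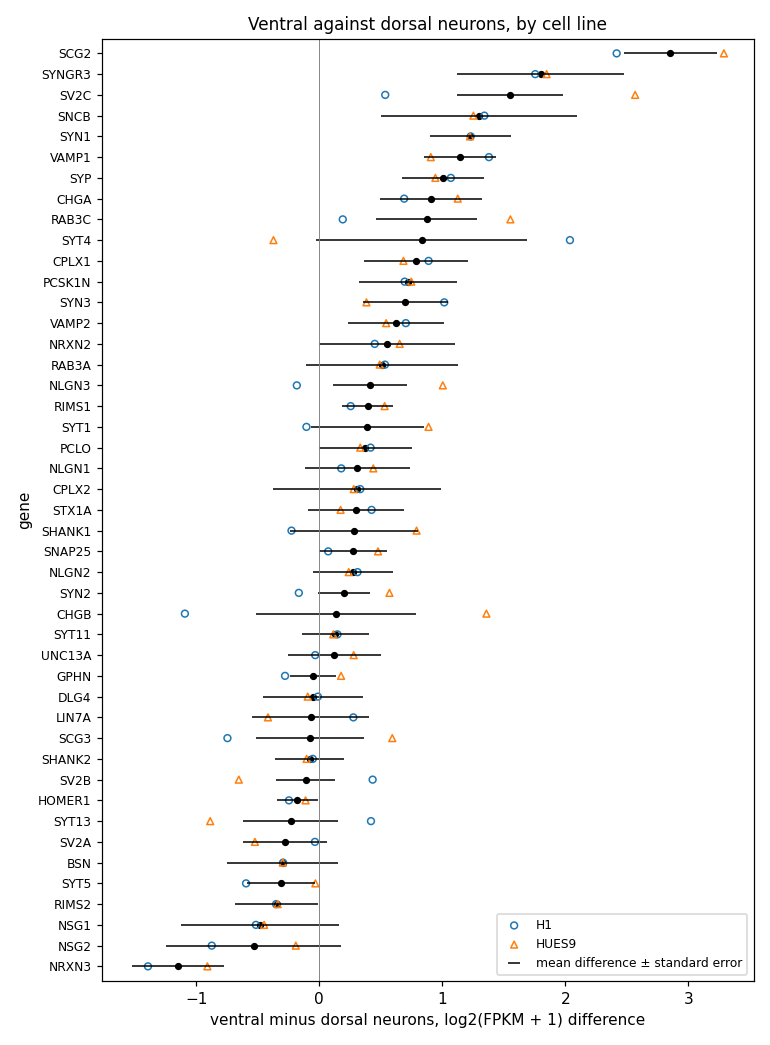
Ventral minus dorsal difference of each gene in log2(FPKM + 1): black points and bars are the fitted mean ± standard error, open circles H1 and open triangles HUES9. SCG2 is at the top with 2.42 in H1 and 3.29 in HUES9, and NRXN3 is at the bottom with a mean of -1.15.

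RASS progenitors, set against RABC progenitors, had 0 of 45 members called by limma, in a comparison where 0.517% of all genes were called; 4 members had an unadjusted p under 0.05, and 0 were called under any of the alternatives run. NRXN3 had 0.808 and 2.3 FPKM in the RASS libraries, against 5.28 and 6.09 FPKM in the RABC libraries (-1.45 ± 0.37, adjusted p = 0.25), and SCG2 had 0.396 and 1.19 FPKM in RASS, against 3.6 and 2.21 FPKM in RABC (-1.14 ± 0.38, adjusted p = 0.403). UNC13A went the other way, with 1.73 and 2.71 FPKM in RASS and 0.605 and 0.483 FPKM in RABC (1.04 ± 0.38, adjusted p = 0.458), as did CHGA, with 13.9 and 6.88 FPKM in RASS and 5.85 and 2.28 FPKM in RABC (1.19 ± 0.42, adjusted p = 0.437). In these 4 genes both RASS libraries lay on one side of both RABC libraries. When the step from RASS to ventral neurons was set against the step from RABC to dorsal neurons, SCG2 was the 1 member called (0.545% of all genes), with a step of 6.75 to ventral neurons and 2.76 to dorsal neurons. That difference of steps was 3.99 ± 0.53 (adjusted p = 0.035). It uses both RASS libraries, and none of the alternatives was run on it. Without both RASS libraries neither comparison can be made.

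Muscle was the other fate sampled. Against neurons, 41 of 45 were lower in muscle and 0 higher, in a comparison where 46.5% of all genes were called (31.9% lower); without SV2B, SV2C and RIMS1 these were 38 of 42. The median difference was -3.04, against -0.34 over all genes, and all muscle values lay below all neuron values for 43 genes, where 46.4% of all genes did so. The mean level in muscle was a median of 1.9% of that in neurons. It was under 10% for 35 genes and over 50% for VAMP1 and HOMER1. Muscle was HUES9 alone, while the neuron mean covers both lines. H1 neurons were above HUES9 neurons for 38 of 45 genes in dorsal and 35 in ventral cultures, so these shares mix line with cell type. Against srNMPs, 10 genes were lower and 1, SCG2, was higher (49.8% of all genes called, 31.6% lower and 18.2% higher), with a median of -0.48 against -0.22 over all genes. Muscle lay below all srNMP libraries for 22 members (43% of all genes) and above them for SYN2, PCSK1N and SCG2 (24.6%). Each muscle day is 1 culture, so its spread was taken from the other groups, and for genes near 0 the p-values reflect that spread and not variation between muscle cultures. The higher share of all calls moved to 49.3% against srNMPs with equal totals (36.5% as reported, median of all genes -0.01) and to 46.2% against neurons with quantile normalization (31.3%, median -0.10), where HOMER1 passed as higher in muscle (0.65, adjusted p = 0.0173). With 0.1 FPKM added 21 members were called against srNMPs, and with only the libraries of the contrast 3.

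Of 13 genes with at least 1 FPKM in both muscle libraries, 10 belonged to the 17 genes present in srNMPs, 2 were first present in progenitors and 1 in neurons. Over all genes, 85.2% of the 11178 at this level in muscle were present in srNMPs. Seen the other way, 10 of the 17 members present in srNMPs were at this level in muscle, against 93.5% of all such genes. For those first present in progenitors it was 2 of 14 against 58.4%, and first in neurons 1 of 10 against 41.6%. For those in no stage it was 0 of 4 against 15.4%. The differences of the 45 from these shares were not tested. NLGN2 had 20.6 and 22.7 FPKM in muscle, against 50.6 to 73.9 FPKM in neurons and 15.2 to 39.8 FPKM in srNMPs, and 8.51 FPKM in ESCs. It was the most abundant of the 45 in muscle and lower than in neurons (-1.21 ± 0.30, adjusted p = 0.0138). VAMP2 had 14.6 and 18.1 FPKM in muscle, against 48.7 to 163 FPKM in neurons and 14.4 to 24 FPKM in srNMPs, and 6.63 FPKM in ESCs. Muscle and srNMPs overlapped for VAMP2 (0.05 ± 0.36, adjusted p = 0.931). SYT11 had 7.93 and 8.39 FPKM in muscle, against 106 to 138 FPKM in neurons and 9.46 to 25.2 FPKM in srNMPs, and 0.893 FPKM in ESCs. It was called lower than in either (-3.74 ± 0.25, adjusted p = 3.02e-05 against neurons and -0.84 ± 0.25, adjusted p = 0.0265 against srNMPs). The SYT11 call against srNMPs was lost under 6 of 14 alternatives. DLG4 had 6.34 and 6.38 FPKM in muscle, against 17.3 to 35.8 FPKM in neurons, and 3.83 FPKM in ESCs. SV2A had 4.93 and 5.45 FPKM in muscle, against 33.9 to 69.4 FPKM in neurons and 13.1 to 24.5 FPKM in srNMPs, and 14.4 FPKM in ESCs. SV2A was thus below both (-2.97 ± 0.31, adjusted p = 0.000311 against neurons and -1.53 ± 0.31, adjusted p = 0.00589 against srNMPs). SCG2 had 3.74 and 5.52 FPKM in muscle, against 17.6 to 195 FPKM in neurons and 0.61 to 2.47 FPKM in srNMPs, and 5.55 FPKM in ESCs. It rose against srNMPs by 1.27 ± 0.34 (adjusted p = 0.0188), a call lost under 4 of 14 alternatives. HOMER1, a scaffold known in muscle as well as in synapses, had 4.87 and 4.82 FPKM in muscle, above every neuron library (3.44 to 4.65 FPKM), without passing the test (0.28 ± 0.15, adjusted p = 0.173). VAMP1 had 4.3 and 6.25 FPKM in muscle, and STX1A 3.48 and 5.25 FPKM. VAMP1 did not pass against neurons (-0.64 ± 0.27, adjusted p = 0.0889), while STX1A did (-1.25 ± 0.35, adjusted p = 0.0241). GPHN had 4.05 and 3.76 FPKM in muscle, against 12.1 to 13.8 FPKM in srNMPs, and it was the member with the smallest adjusted p among those lower than in srNMPs (-1.51 ± 0.17, adjusted p = 0.00042).

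**Figure D5:**
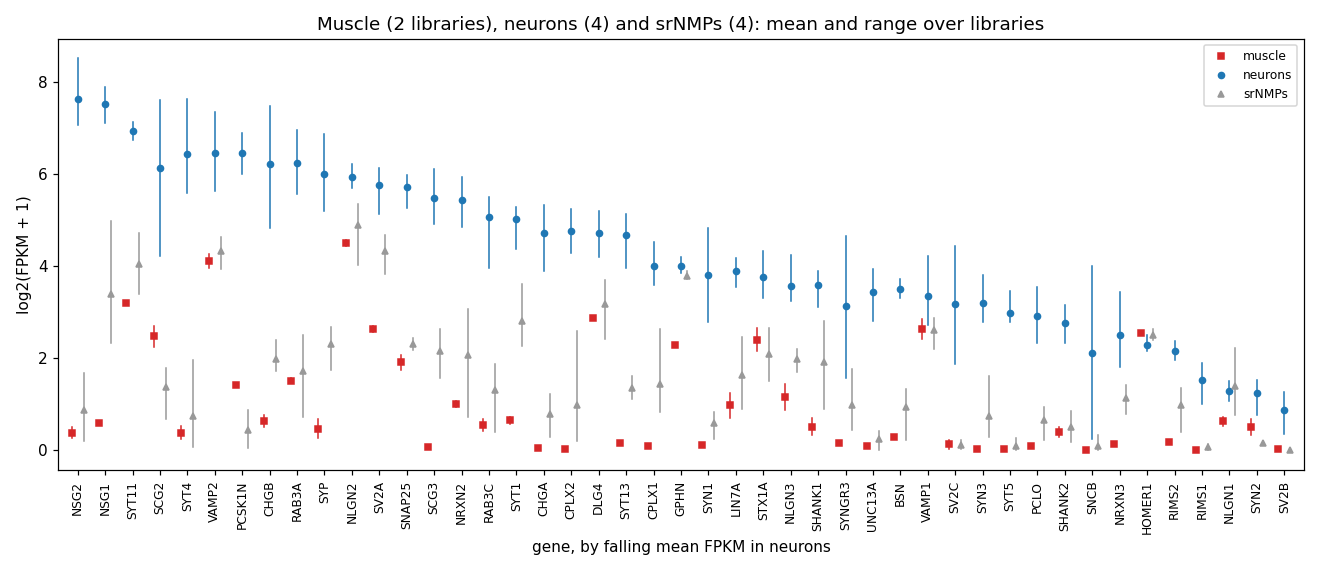
Mean (points) and range (lines) over libraries of log2(FPKM + 1) for the 45 genes in muscle (red, 2 libraries), neurons (blue, 4) and srNMPs (grey, 4), ordered by mean FPKM in neurons. Muscle lies below the neuron range for 43 genes, VAMP1 overlaps it, and HOMER1 lies above it.

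SNAP25 had 3.22 and 2.34 FPKM and RAB3A 1.96 and 1.75 FPKM in muscle, against 37.2 to 62.3 and 46.2 to 123 FPKM in neurons. SYP had 0.202 and 0.593 FPKM in muscle and was lower than in srNMPs (-1.68 ± 0.30, adjusted p = 0.00361). NSG1 had 0.505 and 0.500 FPKM and NSG2 0.196 and 0.42 FPKM in muscle, and NSG1 gave the largest drop of the 45 against neurons (-7.33 ± 0.59, adjusted p = 8.04e-05). PCSK1N had 1.6 and 1.75 FPKM in muscle. It was above all 4 srNMP libraries there without passing (0.99 ± 0.36, adjusted p = 0.056). Under 0.1 FPKM in both muscle libraries were SYN1 (0.0987 and 0.0559 FPKM), SYN3, CPLX1 (0.0636 and 0.0793 FPKM), CPLX2 (0.0148 and 0.0103 FPKM), CHGA (0.036 and 0.0373 FPKM) and SCG3, among others, and SNCB was listed at 0 in both. SV2C had 0.0237 and 0.168 FPKM, SYT4 0.176 and 0.449 FPKM, SYT13 0.0803 and 0.156 FPKM, RAB3C 0.338 and 0.59 FPKM and UNC13A 0.101 and 0.0299 FPKM. BSN had 0.258 and 0.189 FPKM, NRXN2 0.917 and 1.09 FPKM, NRXN3 0.104 and 0.0959 FPKM, NLGN3 0.841 and 1.7 FPKM and CHGB 0.421 and 0.705 FPKM. LIN7A had 0.626 and 1.38 FPKM, SHANK1 0.248 and 0.633 FPKM and SHANK2 0.221 and 0.414 FPKM. The 10 members called lower than in srNMPs were SYP, SV2A, SYT1, SYT11, SYT13, CPLX1, NLGN3, GPHN, NSG1 and SCG3. Of 12 neuron markers, 7 reached 1 FPKM in both muscle libraries (summed FPKM 232 to 293 in muscle, against 1809.9 to 3436 in neurons). DCX had 43.8 and 76.3 FPKM and NEFM 119 and 151 FPKM in muscle, while ELAVL3 had 0.088 and 0.0183 FPKM and RBFOX3 0.0129 and 0.00335 FPKM, and their part in the muscle values was not tested. Of 86 further synaptic genes, 57 were lower and 5 higher in muscle than in neurons.

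The ESC library, which entered no comparison, had 28 of the 45 genes at 1 FPKM or more, and 4 at 10 FPKM or more. NSG1 was highest there at 31.2 FPKM, followed by SCG3 at 15.3, SV2A at 14.4 and UNC13A at 10.04 FPKM. UNC13A in ESCs was thus above every srNMP and progenitor library. CHGA had 9.56 FPKM, NLGN2 8.51 FPKM, VAMP2 6.63 FPKM, CPLX2 4.29 FPKM, RAB3A 3.33 FPKM and SHANK2 3.02 FPKM. PCSK1N was at 1.6 FPKM, CHGB at 1.29, SYT13 at 1.25, SYN1 at 1.23, SYP at 1.19, NLGN3 at 1.18 and LIN7A at 1.11 FPKM. Under 1 FPKM in ESCs were CPLX1 (0.936 FPKM), RAB3C (0.601 FPKM), SYT4 (0.592 FPKM), BSN (0.567 FPKM), NRXN2 (0.305 FPKM), NSG2 (0.245 FPKM), SNAP25 (0.188 FPKM), NRXN3 (0.188 FPKM), SHANK1 (0.0943 FPKM) and SV2C (0.0385 FPKM). With 1 library there is no replicate check on these levels.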

How the data were processed

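Per the labels' protocols, RNA was extracted with TRIzol or mirVana reagents, made into stranded TruSeq mRNA libraries and read on a NovaSeq. The tools named, per the submitters' processing notes, are Cufflinks, HTSeq, HISAT2 and Trimmomatic, and the build is hg18; versions, settings and strand options are not given in the sources used here, so overlapping genes cannot be told apart. The authors deposited FPKM per gene symbol, taken as listed; no coordinates were read from that table, and promoter windows are RefSeq's on GRCh38.p14. 1 further column of values matched no sample and was not used. Tests covered the 14129 of 17999 genes that reached 1 FPKM in any library. They were run on log2(FPKM + 1) with limma 3.58.1 in R 4.3.3: 1 mean per group and 1 term for the line named in the labels, variance trend, 5 residual degrees of freedom, two-sided moderated tests, Benjamini-Hochberg adjustment over all genes of a comparison. FPKM hold no counts, so no counting interval is given. Of 3151 values of up to 0.1 FPKM in 416 genes, 96.8% were whole multiples of 1 fragment's value within 2%, and this gave relative depths.

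The pairing comes from the line named in the labels. The RASS libraries look exchanged and were fitted under their labels, so the line term can add to the spread used in every comparison. The H1 minus HUES9 differences across genes correlated at 0.0691 to 0.377 between groups other than RASS and at -0.533 to -0.167 with RASS. On simulated data a log2 change of 2 was recovered for 80% of 100 genes in progenitors against srNMPs and for 58% in ventral against dorsal neurons, and a change of 1 for 44% and 15% (14129 genes). Unchanged genes called were 15 and 1. The changed genes were drawn from those with a mean log2(FPKM + 1) above 1, with independent noise and no line effect. The rates therefore do not carry over to weakly expressed members. The members and gene lists were chosen with earlier results of these data known. Some listed genes are not reported here. Values in every library are given, per role, for members called in progenitors against srNMPs, the 3 largest changes in neurons against srNMPs, the highest in muscle and any that fell; of the further lists the 2 largest called changes per direction at 5 FPKM or more are named where reported, and any other gene was chosen after its values were seen. Alternatives were a pseudocount of 0.1, no filter, equal totals, quantile normalization, no line term, only the libraries compared, RASS lines exchanged, 1 muscle group, each library left out and, chosen after seeing the data, both RASS libraries left out.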

Additional observations from a re-analysis of the deposited data

Results flagged for a closer look

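Among 135 tests of 4 libraries of 1 stage (45 genes in srNMPs, progenitors and neurons), 12 had a highest or lowest library set off from the other 3 by more than 0.829 of the range. That limit flags about 1 in 20 groups of 4 independent draws from 1 normal distribution. The libraries of a stage differ in line and in passage, induction or neuron type, and FPKM need not be normal. The rate therefore need not hold here, and 12 flags are not read as an excess. HUES9 passage 25 srNMPs stood high in SYN3 (2.04 FPKM, the others 0.214 to 0.483), SNCB (0.253 FPKM, the others 0 to 0.0142), CPLX1 (5.18 FPKM, the others 0.773 to 1.31) and CPLX2 (5.03 FPKM, the others 0.141 to 0.501), and H1 passage 25 srNMPs in SV2B (0.0186 FPKM, the others 0 to 0.00223). The labelled HUES9 RASS library stood high in SV2A (30.9 FPKM, the others 22 to 23.5), CPLX2 (16.9 FPKM, the others 4.86 to 6.45) and NSG2 (22 FPKM, the others 5.3 to 6.4), and HUES9 RABC in CPLX1 (8.08 FPKM, the others 4.68 to 5.03). In neurons, HUES9 dorsal was low in SYT1 (19.7 FPKM, the others 35.3 to 38), H1 dorsal high in SYT5 (9.94 FPKM, the others 5.94 to 6.24) and HUES9 ventral high in NLGN3 (18 FPKM, the others 8.47 to 10.1).

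The steps to ventral and to dorsal neurons differed for SCG2 by 3.99 ± 0.53 on the log2(FPKM + 1) scale, by the limma test of the difference itself (adjusted p = 0.035). This difference uses both RASS libraries, which did not match their labels, and none of the alternatives was run on it.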

How the results depend on the processing

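Adding 0.1 FPKM in place of 1 moved the members called to 10 in progenitors against srNMPs, 21 in muscle against srNMPs and 0 in ventral against dorsal neurons. No filter left 1 in progenitors against srNMPs. With the RASS lines exchanged 11 were called in progenitors against srNMPs and 3 in ventral against dorsal neurons, and with only the libraries of the contrast 0 in progenitors against srNMPs, 3 in muscle against srNMPs and 0 in ventral against dorsal neurons, where fewer residual degrees of freedom are left. Without both RASS libraries 0 were called in progenitors against srNMPs and 33 in neurons against progenitors. The cause of the other shifts was not tested. The share of all genes called under these settings is not given, so the counts do not set the members apart from other genes. Leaving out 1 library at a time gave 0 to 12 called in progenitors against srNMPs, 29 to 40 in neurons against progenitors, 40 to 42 in neurons against srNMPs, 8 to 13 in muscle against srNMPs, 37 to 41 in muscle against neurons and 0 to 1 in ventral against dorsal neurons; a lone library is then assumed to vary like the other groups. With 1 library left out, the genes called over all 14129 ranged from 45 to 2281 in progenitors against srNMPs. Without the replicate block (no line term), 9 members in place of 6 were called in progenitors against srNMPs, 38 in place of 39 in neurons against progenitors, 14 in place of 11 in muscle against srNMPs and 43 in place of 41 in muscle against neurons, and the counts of 42, 1 and 0 in the other comparisons did not move.

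For the order of appearance, 5 FPKM gave 5, 9, 19 and 12 genes (srNMPs, progenitors, neurons, none) and a mean of 1 FPKM 29, 8, 7 and 1; without both RASS libraries the counts were 17, 17, 7 and 4, and leaving out 1 library gave 17 to 24, 8 to 16, 8 to 13 and 1 to 4. No called member changed sign under the alternatives run. Calls were kept under all of them by 0 of 6 members in progenitors against srNMPs, 28 of 39 in neurons against progenitors, 40 of 42 in neurons against srNMPs, 1 of 11 in muscle against srNMPs and 36 of 41 in muscle against neurons. FPKM without counts and 1 culture per muscle day limit the precision.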

Other observations

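Of the relatives of the synaptic genes, SYPL2, PACSIN1 and PPFIA4 were higher in muscle than in neurons. SYPL2, a synaptophysin relative known in the triads of skeletal muscle, had 5.72 and 6.2 FPKM in muscle, against 0 to 0.103 FPKM in neurons (2.71 ± 0.09, adjusted p = 6.41e-07 by limma). PACSIN1, an endocytosis adaptor known mainly from neurons, had 16.2 and 17.4 FPKM in muscle, against 0.322 to 1.72 FPKM in neurons (3.44 ± 0.23, adjusted p = 3.06e-05). PPFIA4, a liprin, had 23.6 and 38.2 FPKM in muscle, against 1.77 to 14 FPKM in neurons (2.87 ± 0.84, adjusted p = 0.028). RIMS4, a short RIM protein, had 14.9 and 19.7 FPKM in muscle, against 6.87 to 18.6 FPKM in neurons and 0.0609 to 0.826 FPKM in srNMPs; muscle overlapped neurons, the difference from neurons did not pass (0.86 ± 0.42, adjusted p = 0.139), and RIMS4 was called higher in muscle than in srNMPs (3.88 ± 0.42, adjusted p = 0.000387). Of the 13 relatives that serve secretion in other cells, 5 were higher and 1 lower in muscle than in neurons, where 14.6% of all genes were higher and 31.9% lower; STX4, the plasma membrane syntaxin of muscle and fat, had 18.2 and 23.7 FPKM in muscle, against 7.67 to 11.6 FPKM in neurons (1.13 ± 0.14, adjusted p = 0.000686), and SNAP23, the broadly expressed relative of SNAP25, had 11.8 and 11.4 FPKM in muscle, against 3.01 to 3.91 FPKM in neurons (1.44 ± 0.29, adjusted p = 0.00591). These genes were picked after their values were seen, and each muscle day is 1 culture.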
